A study of Mus musculus with 11 samples.

Results

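Transcripts of 10 genes known from tissue-resident macrophages were followed in eosinophils sorted from mouse blood: the complement chains C1qa, C1qb and C1qc, the receptors Timd4, Vsig4 and Slamf9, and the secreted proteins Prg4, Fcna, Cd5l and Lyz1. They were taken from the deposited count table by gene symbol, and all 10 were found among its 55486 genes. The 10 genes were picked with their levels in these same libraries known, so their difference between the groups is described below and not tested. The CIS+IT group comprised 7 FVB/N mice with metastases derived from mammary tumours that were given cisplatin, a DNA-crosslinking drug, together with the antibodies aPD1 and aCTLA4 against the T cell checkpoint receptors PD1 and CTLA4. The Control Ab group comprised 4 such mice given a control antibody alone. All blood was collected by heart puncture on day 21 of treatment, the red cells were lysed, and the sort kept live CD45+, CD3-, CD11b+, F4/80+ cells of low Ly6g and high side scatter. Libraries were prepared by Smart-seq2, which copies whole transcripts from little RNA, with 1 library for each mouse, and the age of the mice was not given in the sources used here.

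Resident macrophages settle in tissues such as the liver, the spleen and the body cavities, where they clear dying cells and bind microbes. They are a main source of C1q, the molecule that recognises antibody complexes and dying cells and starts the classical complement pathway. Many of them carry CD11b and F4/80, which were also part of the eosinophil gate. In sorted bulk RNA, fewer cells of a type and less RNA per cell cannot be told apart.

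The label of the samples was checked against eosinophil markers. All 10 of them were detected in every library but CIS+IT 3, in which the granule gene Epx had 0 counts. Their summed level was 3196 to 8801 CPM (counts scaled to the library total) in CIS+IT libraries and 3993 to 9876 CPM in Control Ab libraries. The lowest was CIS+IT 3. Neutrophil markers summed to 5493 to 13514 CPM in CIS+IT and 6077 to 12095 CPM in Control Ab libraries. That was above the eosinophil sum in every library but Control Ab 1. Most of it was Retnlg, at 5416 to 13380 CPM in CIS+IT and 4929 to 12045 CPM in Control Ab. In CIS+IT 3, among others, monocyte and B cell markers, at 6500 and 5774 CPM, also exceeded the eosinophil sum. These sums do not give the share of each cell type. Library totals ran from 5356118 to 8016658 counts in CIS+IT and from 3733156 to 6721060 counts in Control Ab, so that 3 counts, the limit that a count of 0 allows, correspond to 0.374 to 0.804 CPM. Haemoglobin genes took 28.2% of counts in Control Ab 3 and 20.1% in Control Ab 4, against 1.16% to 4.42% in CIS+IT libraries and 1.06% or less in the other 2 controls. Identifiers in the table's column names carry the letters KDV for CIS+IT 1 and all 4 controls and the letters VIS for CIS+IT 2 to CIS+IT 7. Before the letters stand the digits 19 in every CIS+IT and 20 in every Control Ab identifier. What these letters and digits mark was not given in the sources used here.

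The genes C1qb, C1qc and C1qa lie side by side on the minus strand of chromosome 4 (136880129 to 136898803, GRCm38), within 18675 bases. Promoter sequences were available from RefSeq (GRCm38.p6) for 8 of the 10 genes, as 250 bases before and 50 after the start. They are shown for the neighbouring C1qb and C1qc, for Fcna, whose levels followed those of C1qc most closely, for Timd4, which had 0 counts in the controls, and for Slamf9, the gene whose groups did not overlap. Capitals mark matches to GAGGAAG, a core of sites of the myeloid factor PU.1, or to TGCTGAC, a site for factors of the MAF family, on either strand.
C1qb, chr4:136886151-136886450, minus strand: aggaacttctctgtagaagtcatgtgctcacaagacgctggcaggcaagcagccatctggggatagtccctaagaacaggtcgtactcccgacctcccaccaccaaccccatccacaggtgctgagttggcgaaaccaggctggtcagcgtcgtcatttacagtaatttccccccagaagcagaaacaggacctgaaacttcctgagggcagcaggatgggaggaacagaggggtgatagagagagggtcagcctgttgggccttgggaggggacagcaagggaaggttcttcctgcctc
C1qc, chr4:136892865-136893164, minus strand: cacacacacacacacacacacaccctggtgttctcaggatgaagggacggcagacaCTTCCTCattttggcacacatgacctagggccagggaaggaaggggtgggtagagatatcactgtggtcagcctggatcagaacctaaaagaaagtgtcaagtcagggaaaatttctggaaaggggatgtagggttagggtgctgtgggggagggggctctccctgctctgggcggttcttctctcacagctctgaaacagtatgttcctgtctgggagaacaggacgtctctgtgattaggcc
Fcna, chr2:25627925-25628224, minus strand: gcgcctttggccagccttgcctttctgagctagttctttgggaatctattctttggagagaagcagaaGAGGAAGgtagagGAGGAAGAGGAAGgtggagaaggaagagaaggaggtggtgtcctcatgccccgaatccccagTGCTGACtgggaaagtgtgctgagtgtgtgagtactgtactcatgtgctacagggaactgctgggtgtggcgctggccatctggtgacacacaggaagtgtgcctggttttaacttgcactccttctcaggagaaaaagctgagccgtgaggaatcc
Timd4, chr11:46810549-46810848, plus strand: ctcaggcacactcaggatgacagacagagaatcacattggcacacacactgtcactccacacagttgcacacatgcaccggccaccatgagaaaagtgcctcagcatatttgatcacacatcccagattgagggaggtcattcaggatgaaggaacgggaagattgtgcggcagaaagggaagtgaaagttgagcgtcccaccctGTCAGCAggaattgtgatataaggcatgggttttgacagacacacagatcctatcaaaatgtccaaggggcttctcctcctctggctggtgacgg
Slamf9, chr1:172475110-172475409, plus strand: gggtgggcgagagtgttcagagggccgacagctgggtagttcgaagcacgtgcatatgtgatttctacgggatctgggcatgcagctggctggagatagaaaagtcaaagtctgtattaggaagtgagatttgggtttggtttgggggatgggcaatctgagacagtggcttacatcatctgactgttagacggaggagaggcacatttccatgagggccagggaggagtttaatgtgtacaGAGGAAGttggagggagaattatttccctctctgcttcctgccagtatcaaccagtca

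The PU.1 letters were present in 4 of the 8 promoters (C1qc, Slamf9, Fcna and Cd5l), and in 13.6% of all 32817 promoters of the same length. Fcna held 3 of these matches within its window, and 2 of the 3 share 1 base. The MAF letters were present in 2 of the 8 promoters (Timd4 and Fcna), against 4.67% of all promoters. The letters AGATAA, a form of GATA factor sites, were in 0 of the 8 promoters and in 11.2% of all. Other forms of GATA sites were not searched. Matches to different motifs did not overlap in the 8 promoters, and a match is a description of the letters only.

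Summed over the 10 genes, the level was highest in CIS+IT 3 (2260 CPM), followed by CIS+IT 4 (1285 CPM), CIS+IT 2 (731 CPM) and CIS+IT 6 (261 CPM). The other CIS+IT libraries were CIS+IT 7 at 65.9 CPM, CIS+IT 5 at 41.9 CPM and CIS+IT 1 at 11.9 CPM. The controls stood at 28.3, 5.41, 8.57 and 12.997 CPM in Control Ab 1 to Control Ab 4. CIS+IT 1 was thus below Control Ab 1 and Control Ab 4, and the other 6 CIS+IT libraries were above all 4 controls. The mean was 665 ± 844 CPM in CIS+IT (SD, n = 7) and 13.8 ± 10.1 CPM in Control Ab (SD, n = 4), and the SD of the CIS+IT group exceeded its mean. The log2 ratio of these means was 5.59, and it was 4.85 without CIS+IT 3 and 6.21 without Control Ab 1. Among the libraries with the letters KDV, where CIS+IT 1 is the single treated library, the log2 ratio was -0.22. The libraries with the letters VIS were all CIS+IT, so for them the letters and the treatment cannot be told apart. CIS+IT 1 and the controls still differ in the digits 19 and 20. In every comparison of the groups, the digits and the treatment therefore cannot be told apart.

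**Figure D1:**
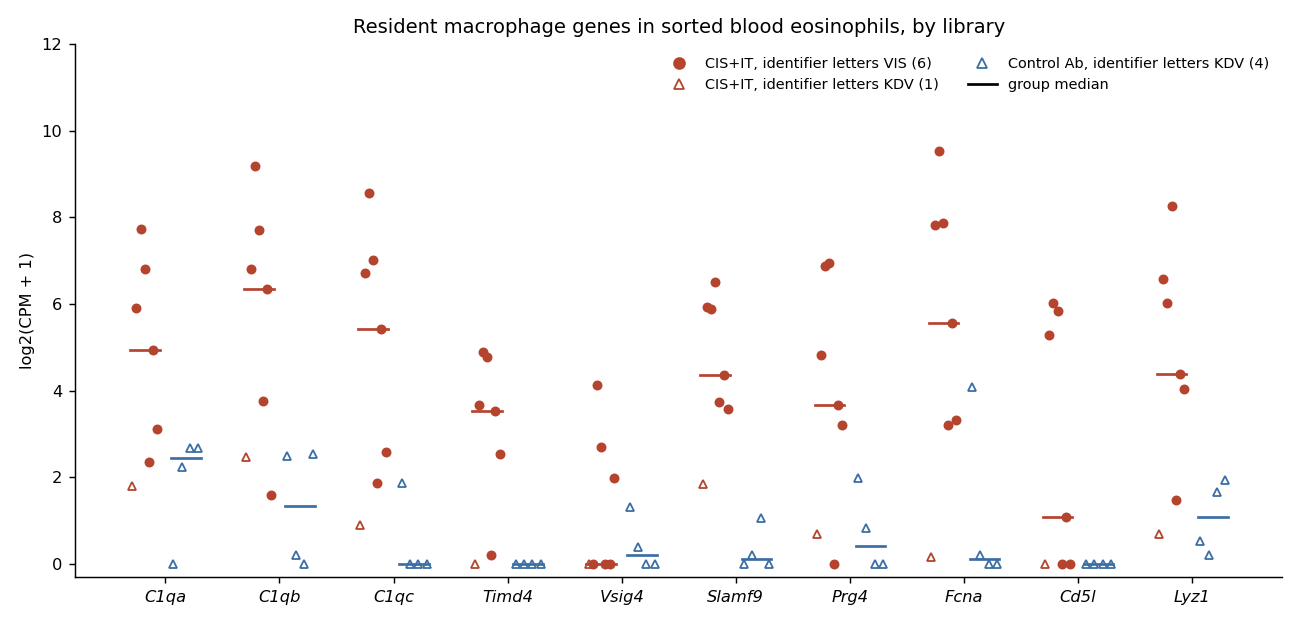
Level of each of the 10 genes in every library, as log2 of CPM of the library total plus a pseudocount of 1; red symbols are the 7 CIS+IT and blue symbols the 4 Control Ab libraries, circles carry the identifier letters VIS and open triangles the letters KDV, and lines are group medians. The CIS+IT points spread widely for each gene, and the open red triangle (CIS+IT 1) lies among or near the controls.

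All 10 genes had a higher mean in CIS+IT than in Control Ab, as did 65.8% of the 21666 genes with a count in any library. A single one, Slamf9, was higher in every CIS+IT than in every Control Ab library, a pattern found in 0.526% of genes with a count, and since the genes were picked on this contrast nothing is read from these counts. By the edgeR quasi-likelihood test over 11389 genes, with Benjamini-Hochberg adjustment at 0.05, 0 genes were called in either direction (0.0% higher and 0.0% lower). The lowest adjusted p was 0.355, and without adjustment 777 genes had a p under 0.05. With DESeq2, 57 genes were called higher (0.441%) and 22 genes lower (0.17%). Of the 10 genes, 8 passed the filter on low counts used for edgeR, and Vsig4 and Cd5l did not.

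Each C1q molecule is assembled from the A, B and C chains that C1qa, C1qb and C1qc encode. The 3 chains summed to 7.86, 274, 1174, 446, 19.4, 152 and 14.6 CPM in CIS+IT 1 to CIS+IT 7 and to 7.29, 3.86, 5.36 and 10.2 CPM in Control Ab 1 to Control Ab 4. CIS+IT 1 lay within the range of the controls and the other 6 CIS+IT libraries above it. C1qb, at 136880129 to 136886187, ranged from 2.01 CPM in CIS+IT 7 over a median of 80.3 to 585 CPM in CIS+IT 3, and had 4.61, 0.155, 0 and 4.84 CPM in Control Ab 1 to Control Ab 4. CIS+IT 1, at 4.49 CPM, and CIS+IT 7 lay within the range of the controls. The mean of C1qb was 143 ± 208 CPM in CIS+IT (SD, n = 7) and 2.40 ± 2.69 CPM in Control Ab (SD, n = 4), a ratio of 59.6. The ratio was 29.0 without CIS+IT 3 and 90.1 without Control Ab 4.

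C1qa, at 136895917 to 136898803, had 2.49 to 211 CPM in CIS+IT libraries, with a median of 29.9, and 0, 3.71, 5.36 and 5.35 CPM in Control Ab 1 to Control Ab 4. It was the C1q chain with the highest mean in the controls, at 3.60 ± 2.53 CPM (SD, n = 4), and the groups overlapped through CIS+IT 1 and CIS+IT 5. C1qc, at 136889804 to 136893065, had 0.873 to 379 CPM in CIS+IT libraries, with a median of 41.8. In the controls its 18 counts were all in Control Ab 1, at 2.68 CPM, which CIS+IT 1 and CIS+IT 5 did not exceed.

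The balance of the chains was compared per library. Per kilobase of exon, C1qb made up 47.8%, 57.4%, 52.5% and 59.4% of the C1q signal in CIS+IT 2, CIS+IT 3, CIS+IT 4 and CIS+IT 6, where 814 to 6654 counts of the 3 chains were present. C1qa made up 21.7% to 29.3% there and C1qc 17.4% to 25.3%. C1qb also led in CIS+IT 1, with 59.1% of 63 counts, and in CIS+IT 5, with 68.6% of 132 counts, on the same scale. In CIS+IT 7, with 109 counts, C1qa was the leading chain at 62.5%. In the controls, with 20 to 49 counts of the 3 chains, C1qa was the leading chain in 3 libraries, with 96.2% in Control Ab 2, 100% in Control Ab 3 and 53.6% in Control Ab 4, and C1qb led in Control Ab 1 with 75.3%. Most of these control counts came from 1 or 2 of the 3 chains.

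Of the receptors, Timd4 encodes a receptor for phosphatidylserine, the lipid that dying cells expose, and marks long-lived resident macrophages. The gene lies on the plus strand of chromosome 11 (46810800 to 46844332). It had 0 counts in all 4 Control Ab libraries. In CIS+IT libraries it ranged from 0 CPM in CIS+IT 1 over a median of 10.5 to 28.6 CPM in CIS+IT 3, with 26.3 CPM in CIS+IT 4 and 0.147 CPM in CIS+IT 5. The mean of 11.7 ± 11.7 CPM (SD, n = 7) was at least 18.9-fold higher than in Control Ab. For this bound every control library was set to the limit of 3 counts (a mean of 0.620 CPM). Without CIS+IT 3 the bound was 14.4. The groups overlapped at 0 through CIS+IT 1, and CIS+IT 5 rested on 1 count.

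Slamf9, on the plus strand of chromosome 1 (172475358 to 172478575), encodes a receptor of the SLAM family found on macrophages and dendritic cells. It was the single gene of the 10 without overlap between the groups. It had 2.62, 60.1, 57.9, 89.4, 12.3, 19.4 and 10.9 CPM in CIS+IT 1 to CIS+IT 7 and 0, 0.155, 1.07 and 0 CPM in Control Ab 1 to Control Ab 4. The lowest CIS+IT library, CIS+IT 1, rested on 21 counts (95% Wilson interval 1.71 to 4.00 CPM), and the highest control, Control Ab 3, on 4 counts (0.417 to 2.76 CPM). These intervals overlap and cover counting error only. With 1 library left out, the fitted log2 fold change of Slamf9 ran from 5.99 to 8.79 (without Control Ab 3), against 6.58 with all libraries.

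Vsig4, a macrophage receptor for complement C3 fragments, lies on the minus strand of chromosome X (96247203 to 96293438). It had the lowest mean of the 10 genes in CIS+IT per kilobase of exon. It was detected in 3 CIS+IT libraries, at 16.4 CPM in CIS+IT 3, 5.53 CPM in CIS+IT 4 and 2.95 CPM in CIS+IT 7, and had 0 counts in CIS+IT 2, although the other 9 genes were present there. In the controls it had 1.49 CPM in Control Ab 1, 0.309 CPM in Control Ab 2 and 0 counts in the other 2. The groups overlapped, since 4 CIS+IT libraries had 0 counts.

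Of the secreted proteins, ficolin A (Fcna), which in mice starts the lectin pathway of complement, lies on the minus strand of chromosome 2 (25624666 to 25628030). It had 737 CPM in CIS+IT 3 (95% Wilson interval 715 to 760), 234 CPM in CIS+IT 4 and 227 CPM in CIS+IT 2. Its lowest CIS+IT value was 0.125 CPM, a single count, in CIS+IT 1, and its median there was 46.3 CPM. The controls had 16.1, 0.155, 0 and 0 CPM in Control Ab 1 to Control Ab 4, so that Control Ab 1 stood above CIS+IT 1, CIS+IT 5 and CIS+IT 7. Whether counting used the strand was not given in the sources used here. The antisense gene Fcnaos, which overlaps 90 exonic bases of Fcna, had 2 counts in CIS+IT 3, 1 in CIS+IT 4 and 0 elsewhere.

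Cd5l, a secreted inhibitor of macrophage cell death encoded on the plus strand of chromosome 3 (87357881 to 87371073), was present in 4 CIS+IT libraries, at 38.0 CPM in CIS+IT 2, 63.9 CPM in CIS+IT 3, 56.5 CPM in CIS+IT 4 and 1.12 CPM in CIS+IT 6. It had 0 counts in CIS+IT 1, CIS+IT 5, CIS+IT 7 and all 4 controls. Its CIS+IT mean of 22.8 ± 29.1 CPM (SD, n = 7) was at least 36.78-fold higher than in Control Ab with every control library set to 3 counts, while the groups overlapped at 0. Without CIS+IT 3 this bound was 25.7. CIS+IT 2, CIS+IT 3 and CIS+IT 4 were the high libraries, as they were for Fcna and the C1q sum.

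Prg4, or lubricin, is a lubricating glycoprotein of joints that mouse peritoneal macrophages also make. The gene, on the minus strand of chromosome 1 (150449412 to 150466165), ranged from 0 in CIS+IT 5 over a median of 11.8 to 122 CPM in CIS+IT 4. It had 2.98 and 0.773 CPM in Control Ab 1 and Control Ab 2 and 0 counts in the other 2 controls. Of its 4280 exonic bases, 204 are shared with Tpr on the opposite strand, a nuclear pore gene present at 84.1 to 337 CPM in every library. CIS+IT 5, Control Ab 3 and Control Ab 4 held 0 counts of Prg4 at 217, 84.1 and 89.2 CPM of Tpr.

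Lyz1 encodes the P form of lysozyme, known in mice from Paneth cells of the gut, on the minus strand of chromosome 10 (117287797 to 117292868). It ranged from 0.624 CPM in CIS+IT 1 over a median of 19.98 to 304 CPM in CIS+IT 4, and had 0.446, 0.155, 2.14 and 2.80 CPM in Control Ab 1 to Control Ab 4. Its assignment is uncertain, because 16.1% of its 50-base stretches occur unchanged in the transcripts of Lyz2, the M lysozyme of myeloid cells. Lyz2 stood at 958 to 11813 CPM in CIS+IT and 348 to 9830 CPM in Control Ab libraries. The order of the libraries differed between the copies. CIS+IT 4 had the highest Lyz1 level and CIS+IT 6 the highest Lyz2 level, and Control Ab 3, with 9830 CPM of Lyz2, had 2.14 CPM of Lyz1. Without Lyz1 the log2 ratio of the summed means was 5.58.

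Per kilobase of exon, C1qb and Fcna were the highest of the 10 genes in CIS+IT, at 132 ± 191 and 131 ± 194 CPM per kilobase (SD, n = 7). C1qa (58.4 ± 73.9), Lyz1 (56.6 ± 85.8) and C1qc (48.9 ± 70.2) came next on this scale, then Slamf9 (27.5 ± 25.1), Cd5l (11.2 ± 14.3), Prg4 (9.59 ± 12.7), Timd4 (5.39 ± 5.37) and Vsig4 (2.40 ± 4.08). No neighbours in this order differed by more than their spread. The highest library was CIS+IT 3 for C1qa, C1qb, C1qc, Timd4, Vsig4, Fcna and Cd5l, and CIS+IT 4 for Slamf9, Prg4 and Lyz1.

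**Figure D2:**
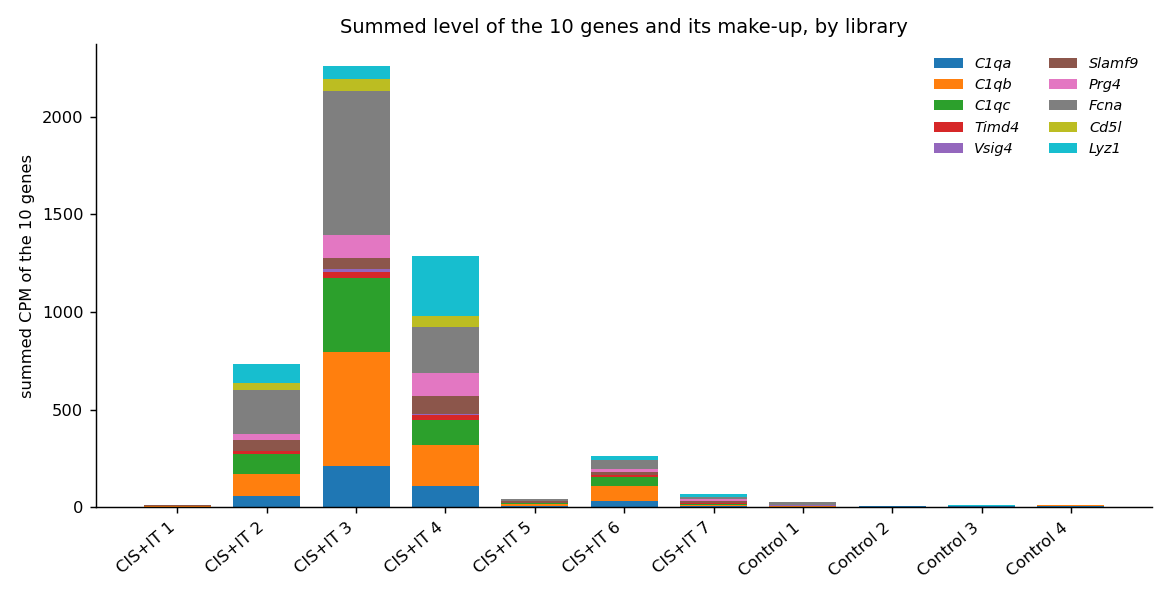
Summed CPM of the 10 genes in each library, stacked by gene, with the 7 CIS+IT libraries on the left and the 4 Control Ab libraries on the right. CIS+IT 3 stands at 2260 CPM with Fcna and C1qb as its largest parts, CIS+IT 4 at 1285 CPM with Lyz1 as its largest part, and all controls at 28.3 CPM or less.

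The make-up of the sum was not the same in the libraries of high level. Fcna was 32.6% of the counts of the 10 genes in CIS+IT 3, 31.0% in CIS+IT 2 and 18.2% in CIS+IT 4. Lyz1 was 23.7% in CIS+IT 4 and 2.84% in CIS+IT 3. In CIS+IT 6, C1qb was the largest part at 30.8%. Slamf9 was 29.5% of the counts in CIS+IT 5, 22.1% in CIS+IT 1 and 2.56% in CIS+IT 3, and 0%, 2.86%, 12.5% and 0% in Control Ab 1 to Control Ab 4.

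The 10 genes nevertheless followed each other across libraries. On log2 CPM, the 45 pairs had a median Pearson r of 0.82 over the 11 libraries and of 0.89 over the 7 CIS+IT libraries. The closest pair was C1qc and Fcna (r = 0.973 over 11 libraries), which lie on different chromosomes. The loosest was Vsig4 and Slamf9 (r = 0.383). These values are descriptions of genes selected for a shared pattern, and libraries share their depth and their counts at 0.

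The genes whose pattern was most like the 10 were found by the Pearson r of their log2 CPM with the mean scaled log2 CPM of the 10 genes, over 11 libraries and among the genes that passed the filter. The closest were Ednrb (r = 0.976), an endothelin receptor, Hspb1 (0.970), a small heat shock protein, Abhd6 (0.957), a lipid hydrolase, and Ccl24 (0.947), an eotaxin that attracts eosinophils through Ccr3. They were followed by Akr1c18 (0.939), a hydroxysteroid dehydrogenase, Fcrls (0.937), a scavenger receptor-like protein, Folr2 (0.935), a folate receptor of tissue macrophages, Igkv6-17 (0.930), an immunoglobulin kappa segment, Gm30211 (0.923) and Aven (0.922), a cell death inhibitor. The median r over 11380 genes was 0.06. When the ranking was made in the 7 CIS+IT libraries alone, 3 of these 10 genes were again among the closest 10.

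Ednrb had 81.1, 246, 140 and 41.4 CPM in CIS+IT 2, CIS+IT 3, CIS+IT 4 and CIS+IT 6, 7.77 CPM in CIS+IT 7, and 0 counts in CIS+IT 1, CIS+IT 5 and all controls. Fcrls had 32.4, 97.1 and 120 CPM in CIS+IT 2 to CIS+IT 4 and 18.9 CPM in CIS+IT 6, against 5.51 CPM in Control Ab 1 and 0 in the other controls. Ccl24 had 76.4 CPM in CIS+IT 3, 28.5 CPM in CIS+IT 4, 7.60 CPM in CIS+IT 2 and 2.43 CPM in CIS+IT 6, and 1.79 CPM in Control Ab 1 as its highest control value. These genes were picked for their likeness, so their levels describe that choice.

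**Figure D3:**
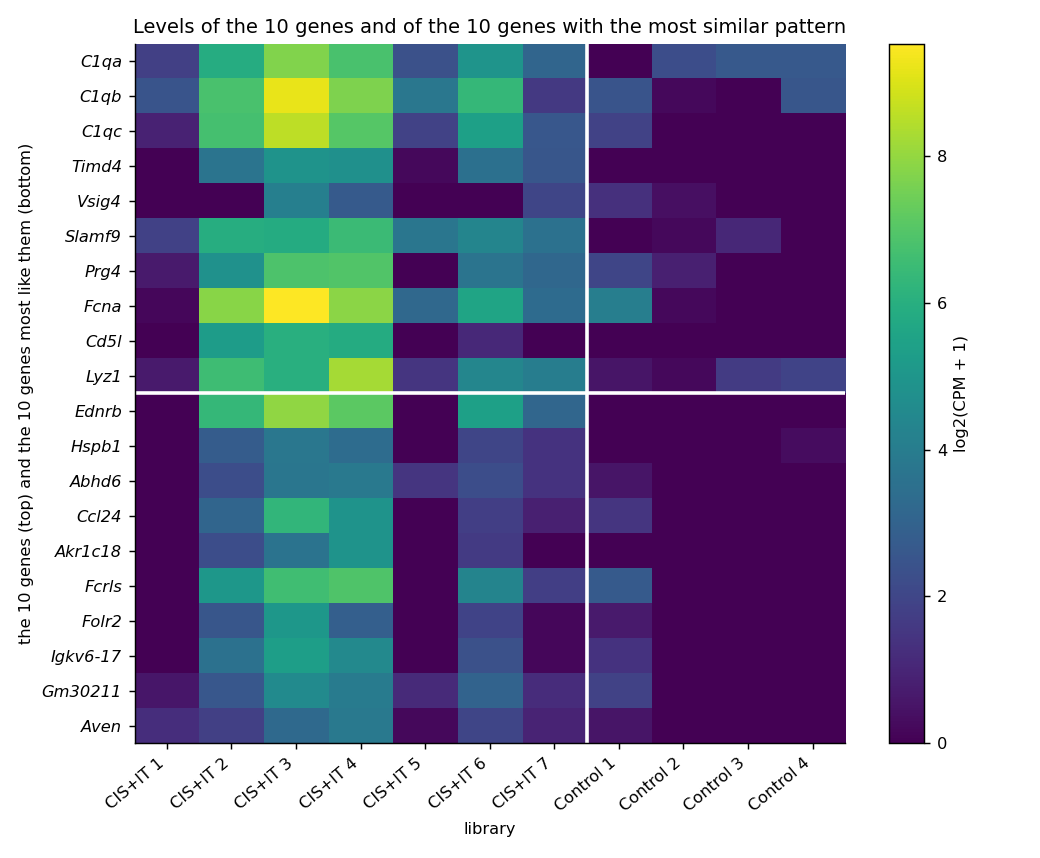
Levels, as log2 of CPM plus 1, of the 10 genes (rows above the white line) and of the 10 genes whose pattern was most like theirs (rows below), in 7 CIS+IT libraries (left of the vertical line) and 4 Control Ab libraries (right). Both blocks are brightest in CIS+IT 2, CIS+IT 3, CIS+IT 4 and CIS+IT 6.

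Further macrophage genes were read from lists of markers. Of 181 different genes in 20 lists, 137 could be tested, and 0 passed the edgeR test (0.0% of all genes tested passed), while DESeq2 called 2, Cxcl13 and Ly9. For the lists that follow, 51.8% of all 11389 genes tested had a log2 fold change above 0. Among 16 markers shared by tissue macrophages, 14 were tested, 11 were above 0 and 3 below, with a median of 0.69 against 0.03 over all 11389 genes. Without Control Ab 3 and Control Ab 4 that median was 2.89, and without Control Ab 3 alone it was 2.03. With the identifier letters as a covariate, where the treatment term rests on CIS+IT 1 against the controls, it was -0.71. The list is uneven, and all 16 markers were detected in CIS+IT 3 against 10 in CIS+IT 5 and 6 in Control Ab 2. CIS+IT 3 also had the most detected genes of any library, at 15557, against 12639 in CIS+IT 5 and 12945 in Control Ab 2.

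The 14 tested markers of that list had a median r of 0.43 with the 10 genes over 11 libraries. The r ran from -0.34 for Csf1r to 0.935 for Folr2, and 3 markers were above 0.8. Fcgr1, Cx3cr1 and Trem2 had an r of -0.26, -0.07 and -0.05. Fcgr1, an Fc receptor, had 0.177 CPM in CIS+IT 3, 65.7 CPM in CIS+IT 6 and 30.5 CPM in Control Ab 3. Lyve1, a hyaluronan receptor, had an r of 0.914. It had 63.5 CPM in CIS+IT 3, 8.77 CPM in CIS+IT 4, 5.97 CPM in CIS+IT 6 and 2.81 CPM in CIS+IT 2, and 0 counts in the other 7 libraries. Cd163, a haemoglobin scavenger receptor that did not pass the filter on low counts, had 36.4 and 25.9 CPM in CIS+IT 3 and CIS+IT 4, 4.29 CPM in CIS+IT 6 and 0.661 CPM in CIS+IT 2, and 0 counts in the other CIS+IT libraries and all controls. Mrc1, the mannose receptor, had 80.7 CPM in CIS+IT 3 and 10.9 CPM in Control Ab 1, and 0 in the other 3 controls. The 3 markers of highest mean CPM in the list were high in other libraries too. Apoe, a lipid carrier, stood at 283 to 2749 CPM in CIS+IT and 40.8 to 1145 CPM in Control Ab, Csf1r, the CSF1 receptor, at 436 to 1116 CPM in CIS+IT and 372 to 658 CPM in Control Ab, and Cd68, a lysosomal protein, at 86.4 to 555 CPM in CIS+IT and 7.26 to 265 CPM in Control Ab.

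Markers of particular resident macrophages were partly at 0. Gata6, the transcription factor of body cavity macrophages, was detected only in CIS+IT 3, at 1.24 CPM, and Cxcl13, a chemokine of the same cells, at 19.4 CPM in CIS+IT 3 and 7.28 CPM in CIS+IT 4 and nowhere else. In CIS+IT 3 all 13 body cavity markers had counts, and in CIS+IT 4 it was 12 of 13, against 8 or 9 in the other CIS+IT libraries and 6 to 9 in the controls. Of all genes, 15557 were detected in CIS+IT 3 and 13360 in CIS+IT 4. The other CIS+IT libraries had 12639 to 14806 and the controls 10775 to 14550. The marker Rarb counted here with 0.353 CPM in CIS+IT 3 and 0.405 CPM in CIS+IT 4. The 3 body cavity markers with the highest mean CPM, Alox15, F5 and Fn1, reached 545, 1250 and 732 CPM in CIS+IT 3. Alox15, a lipoxygenase that eosinophils make as well, stood at 551 to 1304 CPM in the controls, and F5, a clotting factor, at 537 to 1461 CPM. Fn1, fibronectin, had 839, 732 and 270 CPM in CIS+IT 4, CIS+IT 3 and CIS+IT 2, and at most 175 CPM in a control. Of this list 9 were tested, 6 were above 0 and 3 below, and the median log2 fold change was 0.22.

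Clec4f, the defining marker of Kupffer cells, and Cdh5 had 0 counts in all 11 libraries. The Kupffer cell markers of highest mean CPM were Cd38, Id3 and Il18bp, at most 161, 47.4 and 25.2 CPM in any library. Of the 4 tested, 3 were above 0 and the median log2 fold change was 0.77. It was 3.51 without Control Ab 3 and Control Ab 4 and -1.23 with the letters as a covariate. Marco, a scavenger receptor, had 32.4 CPM in CIS+IT 2, 8.83 CPM in CIS+IT 3 and 5.60 CPM in CIS+IT 6 and 0 counts elsewhere. Of the spleen macrophage markers Cd209b had 0 counts throughout, and Spic, the factor of red pulp macrophages, had 0.177 CPM in CIS+IT 3 and 0 in CIS+IT 4, with its highest level of 32.1 CPM in CIS+IT 6. Of the alveolar macrophage markers Krt79 and Atp6v0d2 had 0 counts in all libraries. Chil3, a chitinase-like protein of macrophages and granulocytes, had the highest mean CPM of that list, with 1774 CPM in CIS+IT 3, 1129 CPM in CIS+IT 6 and 23.7 to 235 CPM in the other CIS+IT libraries, against 0 to 324 CPM in Control Ab. Car4, a carbonic anhydrase, was highest in Control Ab 1 (108 CPM), and Pparg, a nuclear receptor, was at most 20.4 CPM in CIS+IT and 12.9 CPM in Control Ab. Of 4 spleen markers tested 2 were above 0 (median log2 fold change 0.16), and of 4 alveolar markers tested 2 were above 0 (median -0.06). Without Control Ab 3 and Control Ab 4 these medians were 1.62 and 1.94, and with the letters as a covariate 0.44 and -0.88.

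Partners of C1q in the classical pathway were read next. C1ra and C1s1, the proteases that C1q activates, reached at most 16.6 and 1.34 CPM in any library. C4b, the next component of the cascade, had 99.4 CPM in CIS+IT 3, 42.1 CPM in CIS+IT 4, 26.4 CPM in CIS+IT 2 and 12.5 CPM in CIS+IT 6, against 6.70 CPM in Control Ab 3 as the highest control. The genes of highest mean CPM in the list were Calr, Lrp1 and C3. Calr, a chaperone and C1q ligand, had 207 CPM in CIS+IT 3 and 39.9 to 89.7 CPM in the controls. C3, the central component, had its highest levels of 103 CPM in CIS+IT 3 and 98.8 CPM in CIS+IT 6, and 86.3 CPM in Control Ab 3. Of 10 genes 7 were tested, 6 were above 0, and the median log2 fold change was 0.58. It was 3.85 without Control Ab 3 and Control Ab 4 and -0.19 with the letters as a covariate. In the alternative and lectin pathways, Itgam, C3ar1 and Cfp, a receptor chain, the C3a receptor and properdin, had the highest mean CPM of 13 genes, 9 were tested, 6 were above 0 and the median was 0.11 (-0.04 with the letters as a covariate). Of genes for the clearance of dying cells, 6 of 13 tested were above 0, with a median of -0.14 (0.76 without Control Ab 3 and Control Ab 4), and those of highest mean CPM were Cd300lf, Rac1 and Elmo1.

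Among macrophage transcription factors, 10 of 14 tested were above 0, with a median of 0.46. It was 1.67 without Control Ab 3 and Control Ab 4 and -0.12 with the letters as a covariate. Spi1, which encodes PU.1, had the highest mean CPM, at 742 to 1559 CPM in CIS+IT and 747 to 1146 CPM in Control Ab, and its lowest level was in CIS+IT 3. Bhlhe40 and Zeb2 came next in mean CPM, with log2 fold changes of -0.06 and -0.03. Bhlhe40 stood at 316 to 634 CPM in CIS+IT and 110 to 1070 CPM in Control Ab. Zeb2 stood at 283 to 489 CPM in CIS+IT and 189 to 536 CPM in Control Ab. The 14 tested factors had a median r of 0.22 with the 10 genes, from -0.41 for Spic to 0.74 for Bhlhe41. Bhlhe41 had 176 and 131 CPM in CIS+IT 3 and CIS+IT 4, 0.882 CPM in CIS+IT 5, and 60.1 CPM in Control Ab 1. Of the relatives of the 10 genes, Timd2 and Havcr1, from the family of Timd4, had 0 counts throughout, and the ficolin gene Fcnb reached at most 4.91 CPM. Of 9 relatives tested 5 were above 0, with a median of 0.50. Ly9, a relative of Slamf9, was a gene called by DESeq2, with 74.99, 64.4, 47.5 and 35.8 CPM in CIS+IT 4, CIS+IT 6, CIS+IT 3 and CIS+IT 2, 4.42 to 11.9 CPM in the other 3 CIS+IT libraries and 1.61 to 9.22 CPM in Control Ab.

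Markers of other cell types were read beside the 10 genes. B cell markers summed to 5774 and 6517 CPM in CIS+IT 3 and CIS+IT 4, 1403 to 3228 CPM in the other CIS+IT libraries and 519 to 3223 CPM in Control Ab. All 8 B cell markers were tested, with 7 above 0 and a median log2 fold change of 1.75, against -1.80 with the letters as a covariate. Mast cell markers summed to 950 CPM in CIS+IT 4 and 69.2 CPM in CIS+IT 3, and to at most 22.6 CPM in the other CIS+IT and 9.52 CPM in the control libraries. In CIS+IT 4 the mast cell protease genes Cpa3, Cma1 and Tpsb2 had 431, 302 and 181 CPM, while Fcer1a had 0 counts in all CIS+IT libraries. Monocyte markers summed to 1679 to 18826 CPM in CIS+IT and 749 to 13711 CPM in Control Ab, highest in CIS+IT 6 and Control Ab 3 and not in CIS+IT 3 (6500 CPM). The 10 genes summed to 261 CPM in CIS+IT 6 and to 8.57 CPM in Control Ab 3, a library with 28.2% haemoglobin counts. Mesothelial markers summed to at most 33.3 CPM, in CIS+IT 4, and Wt1 had 0 counts in all libraries. Of further lists, 1 of 10 eosinophil markers and 0 of 7 neutrophil markers tested were above 0, with medians of -0.19 and -1.58. Without Control Ab 3 and Control Ab 4 the eosinophil median was 0.21 and the neutrophil median -0.22. Of T and NK cell markers 1 of 4 tested was above 0, and of dendritic cell markers 3 of 4. The 8 erythroid and 6 platelet markers were all below 0, with medians of -2.71 and -1.76, and without Control Ab 3 and Control Ab 4 these medians were 2.80 and 2.88. The part of these cell types in the levels of the 10 genes was not tested.

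**Figure D4:**
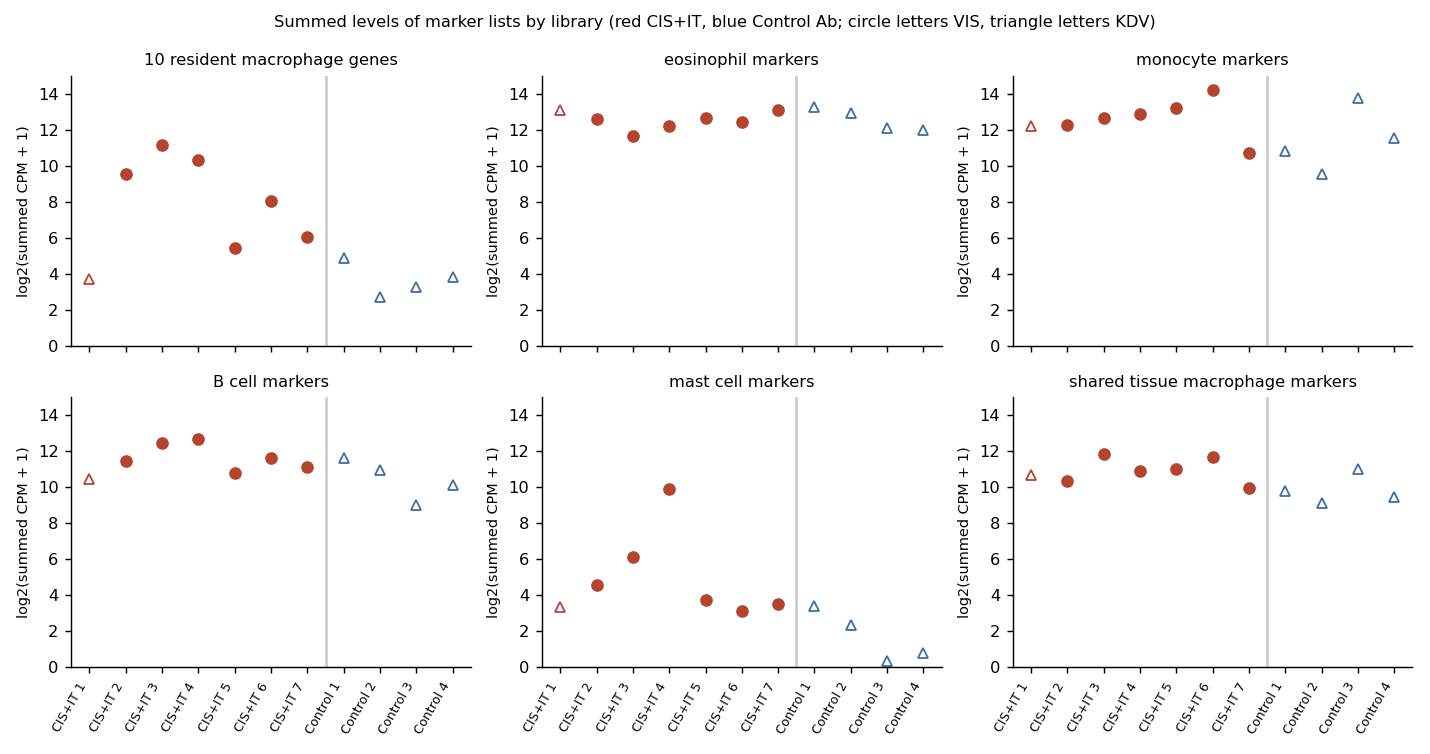
Summed CPM of the 10 genes and of 5 marker lists in each library, as log2 of the sum plus 1, on the same axis range; red is CIS+IT, blue is Control Ab, circles carry the letters VIS and open triangles the letters KDV. The 10 genes span from 5.41 to 2260 CPM between libraries, eosinophil markers from 3196 to 9876 CPM, and the monocyte markers are highest in CIS+IT 6 and Control Ab 3.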

How the data were processed

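The authors deposited raw read counts per Ensembl gene for 11 libraries in a single table. The submitters' processing notes name GRCm38 as the build and list SAMtools 1.15.1, HISAT2 2.10 and bcl2fastq 2.20.0.422 as tools. Which counter, gene annotation and strand setting were used was not given in the sources used here. A single row without a gene held 0 counts and was left out. Groups came from the sample titles. Each library is labelled as a separate mouse, and no pair of libraries agreed within sampling noise (lowest chi-square per gene 59.2).

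CPM are counts per library total. The whole table was tested with edgeR 4.0.16, run in R 4.3.3 (quasi-likelihood test, robust dispersions, TMM scaling, filterByExpr, Benjamini-Hochberg adjustment at 0.05), fitted to all genes. The code was run on simulated data with a smaller spread between libraries than in these data (common coefficient of biological variation 0.828). That run therefore does not show which differences the test could find here. Fold changes are CIS+IT minus Control Ab. Exon lengths, overlaps and 50-base stretches came from GENCODE M21, which 55226 genes matched. PCR reads carry no molecular identifiers, so intervals and the limit of 3 counts cover counting error only. The genes and lists were chosen with earlier results of these data known. Named list genes came from the 3 of highest mean CPM, markers at 0 and genes called, with further ones chosen after their values were seen; likeness used log2 CPM with a prior count of 2. Alternatives were DESeq2 1.42.0 and its size factors, other filters, a replicate block, identifier letters as a covariate, and leaving out libraries.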

Additional observations from a re-analysis of the deposited data

Results flagged for a closer look

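Of 22 sets of values tested for a library far from the others of its group (each of the 10 genes and their sum, in each group, on log2 of CPM plus 1), 3 stood out, all in Control Ab 1. Chance flags about 1 in 20, but this rate does not hold where values are tied at 0. Fcna stood at 16.1 CPM there, against 0.155 CPM or less in the other controls, which were nearly tied. C1qc stood at 2.68 CPM there and had 0 counts in the other controls, so that any count in a single control would have been flagged. C1qa had 0 CPM there and 3.71 to 5.36 CPM in the other controls.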

How the results depend on the processing

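Over all genes, edgeR called 0 under every alternative run, including each library left out in turn (0 to 0), no filter, the stricter filter (1 CPM in 4 libraries), DESeq2 size factors and the identifier letters as a covariate, while DESeq2 called 79, of which 2 were list genes (0 by edgeR in all settings). With replicate number as a block 0 genes were called; the numbers share no label of origin, and same-numbered libraries had correlations of -0.116 to 0.0212, so no pairing was used. The log2 ratio of the summed means ran from 4.85 to 6.21 with 1 library left out, was 5.26 with TMM scaling, 5.46 without haemoglobin counts, 5.30 without Control Ab 3 and Control Ab 4 and 4.09 as a difference of mean log2 values, and was -0.22 within the libraries with the letters KDV, an alternative chosen after seeing the data. The count of the 10 genes without overlap was 1 to 2 with 1 library left out, 2 without CIS+IT 1 or without Control Ab 1. With the letters as a covariate, where the treatment term rests on CIS+IT 1, the fitted log2 fold change was -4.78 for Fcna, -1.41 for Lyz1, -0.88 for C1qa, -0.61 for Prg4, 0.22 for C1qc, 0.73 for C1qb and 2.93 for Slamf9. For Timd4, with 0 counts in CIS+IT 1 and all 4 controls, it was 0, against 9.05 without the covariate. Without Control Ab 1, and without the covariate, the fitted log2 fold change was 11.99 for C1qc and 10.6 for Fcna, against 6.75 and 5.31 with all libraries. With 1 library left out, the medians printed for the alveolar (-0.33 to 1.69), spleen (-0.19 to 1.02) and cell clearance lists (-0.33 to 0.18) changed sign. The medians of the eosinophil (-0.42 to 0.23) and neutrophil lists (-1.98 to 0.08) also did. Of the 10 genes of most similar pattern, 4 to 10 were again among the closest 10 with 1 library left out (4 without Control Ab 3), and 3 without Control Ab 3 and Control Ab 4, also alternatives chosen after seeing the data. At these totals, levels below 0.374 to 0.804 CPM could not be told from 0.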
